A study of Mus musculus with 2 samples.

Results

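Hepatic stellate cells were followed in single-cell RNA-seq of liver non-parenchymal cells (the liver cells other than hepatocytes) from mice treated with CCl4 (carbon tetrachloride, a solvent that injures hepatocytes and leads to liver fibrosis). The groups were Mfap2+/+ (WT) and Mfap2-/- (KO), both treated for 8 weeks. Mfap2 encodes microfibril-associated glycoprotein 1, a component of extracellular microfibrils, and the labels give no untreated animals and no replicate numbers. There was 1 library per genotype, the number of animals behind each is not given in the sources used here, and no test between genotypes is possible. Intervals given here are 95% intervals that cover counting error alone.

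The members were chosen by their own transcripts. A cell needed 200 or more detected genes and no more than 20% of its UMIs from mitochondrial genes (UMIs are unique molecular identifiers, tags that count single RNA molecules). It had to show at least 2 of Lrat, Reln, Colec11, Ecm1, Hgf and Cygb with at least 4 UMIs in sum, and at least 3 UMIs of Dcn, Pdgfrb and Des. It could have at most 5 UMIs of the endothelial genes Stab2, Clec4g and Ptprb, at most 10 of the macrophage genes C1qa, C1qb and C1qc, and 0 of Cd3d, Cd3e and Cd3g. This left 317 of 24093 filtered cells, 169 of 11370 in WT and 148 of 12723 in KO. Because these genes selected the cells, their levels are a description and support nothing else.

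Stellate cells are the vitamin A-storing pericytes of the liver sinusoid, lying between hepatocytes and the endothelium. At rest they esterify and store retinoids in lipid droplets and supply growth factors such as hepatocyte growth factor to neighbouring cells. After injury they can become myofibroblasts that express smooth muscle actin and secrete the fibrillar collagens of scar tissue, and they are held to be a major source of matrix in CCl4 fibrosis.

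The libraries held 82499307 UMIs (WT) and 118226367 UMIs (KO), with 4932.5 and 6587 UMIs in the median filtered cell. The stellate cells summed to 1702200 UMIs in WT and 1713905 in KO. The median stellate cell had 10294 UMIs in WT (875 to 24212) and 11407.5 in KO (537 to 33515). The 2 libraries shared 40 cell barcodes, of which 0 belonged to a WT and 1 to a KO stellate cell. Doublets were scored with Scrublet but left in, and 28 WT and 28 KO stellate cells were among the 1034 and 1295 highest-scoring cells of their libraries. The automatic Scrublet threshold marked 1 WT and 727 KO cells, 0 and 11 of them stellate cells, and was not used because of the WT result.

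The absolute limits removed many candidates. After the positive steps 363 WT and 386 KO cells were left, and the endothelial limit then took away 44 and 75, the macrophage limit 114 and 143, and the T cell limit 36 and 20. The 194 WT and 238 KO cells removed by these limits had 21514.5 and 23479.5 UMIs in the median, above the depth of the cells kept. Of them 77 and 85 were among the highest Scrublet scores. Just inside the macrophage limit, at 10 UMIs, were 8 WT and 11 KO cells, and just outside it, at 11 UMIs, were 14 and 13. At the lower edge of the stellate genes, 6 WT and 1 KO cells had 4 UMIs and 10 and 9 had 3.

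Genes that the rule did not use bear on the label. Colec10, a collectin of stellate cells, was at 184 CPM (the summed UMIs of a gene per 1000000 UMIs of the same cells) in WT and 111 in KO, against 6.79 and 2.79 in all other filtered cells. The stellate transcription factors pointed the same way. Tcf21 was at 353 and 221 CPM, against 11.1 and 9.94 elsewhere. Hand2 was at 189 and 148 CPM and Lhx2 at 154 and 97.4, each under 10 CPM in the other cells of both libraries. All 4 are known stellate cell genes, and their levels fit the label.

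Macrophage markers were low but not absent. The summed 11 macrophage genes were at 1349 CPM in WT and 1134 in KO stellate cells, against 8340 and 6228 in the other cells. Free RNA is the level to set beside them. Thinned to 2000 UMIs per cell, Lyz2, a myeloid lysozyme, was detected in 52.6% of WT and 50.7% of KO stellate cells and in 56.5% and 53.7% of B cells, which should lack it. Before thinning those shares were 91.1% and 93.9% in stellate cells (median depths 10294 and 11407.5 UMIs) and 78.5% and 82.9% in B cells (3651 and 4960 UMIs). Thinning left out 13 WT and 10 KO stellate cells and 22 and 18 B cells. The Lyz2 share in stellate cells was thus at the background. Dcn, decorin, was detected in 97.4% and 91.3% of thinned stellate cells and in 11.0% and 8.43% of B cells. Dcn was among the rule's genes, so its high share in stellate cells follows from the selection and is a description.

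Members also carried genes of other mesenchymal or epithelial cells. The 9 portal fibroblast genes summed to 233 CPM in WT and 264 in KO, against 73.3 and 67.0 in the other cells. Of the members, 100 in WT and 86 in KO had at least 1 of these UMIs. The 7 smooth muscle genes summed to 883 and 951 CPM against 50.8 and 61.5, with UMIs in 151 and 139 members. What part of these sums came from stellate cells was not tested. The 6 mesothelial genes summed to 193 CPM in WT and 56.6 in KO, with 82.6% and 70.1% of those UMIs in 5 cells. Hepatocyte genes summed to 221 and 666 CPM against 504 and 847 in the other cells, and cholangiocyte genes to 385 and 594 against 1269 and 1036. In each case the 5 richest cells held 48.4% to 67.2% of the UMIs. The Cd3 genes were at 0 by the rule.

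**Figure D1:**
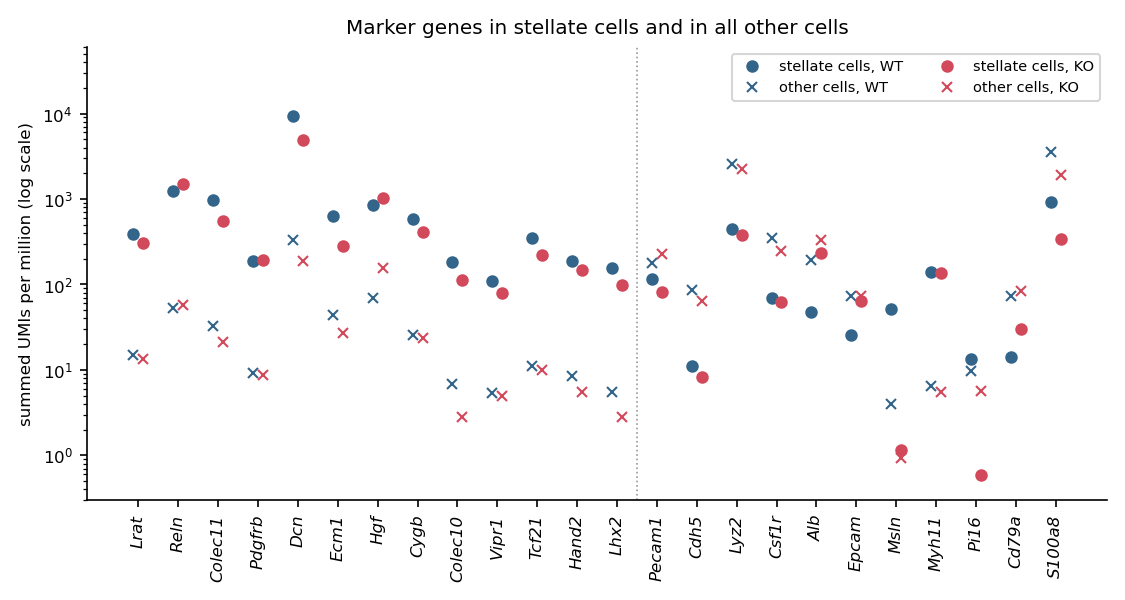
CPM of summed UMIs (log scale) of stellate cell genes (left of the dotted line) and genes of other cell types (right) in stellate cells (circles) and in all other filtered cells (crosses), WT in blue and KO in red. Colec10 sat at 184 and 111 CPM in stellate cells and at 6.79 and 2.79 elsewhere, while Lyz2 and Csf1r sat below the other cells.

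Among the genes with the highest ratio of stellate to other cells were several secreted ligands. Bmp5, a bone morphogenetic protein, was at 228 CPM in WT and 340 in KO stellate cells. Gdf2, which encodes BMP9, was at 207 and 112 CPM and was seen in 63.3% and 48.6% of the cells. Pdgfra, a receptor for platelet-derived growth factor, was at 301 and 348 CPM, and Ednra, an endothelin receptor, at 155 and 133. Ccbe1, Astn2, Pakap, Lrrc4c, Eya4, Zfp804b, Olfr1033, Tnc, Colec10 and the antisense transcript Hand2os1 were also among the 15 chosen by that ratio. These ratios were part of how the genes were picked and are a description.

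Stellate cells made up 1.49% of filtered WT cells (1.27 to 1.73, exact Clopper-Pearson interval) and 1.16% of KO cells (0.984 to 1.37). The log2 ratio of KO to WT was -0.35 (-0.68 to -0.03). Under other gates its value ran from -0.84 to -0.18, with no interval given for these. With the endothelial and macrophage limits scaled to cell depth, 211 WT and 208 KO cells passed. Without a macrophage limit 253 and 248 did. The share reflects tissue digestion and cell capture as well as the tissue, and these cannot be told apart with 1 library per genotype.

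Mfap2 itself gave 84 UMIs in WT stellate cells, in 46 of 169 cells (27.2%), or 49.3 CPM. There were 0 UMIs in KO stellate cells. With a floor of 3 counts over the KO stellate cells, the level was at least 28.2-fold higher in WT. The other filtered cells held 173 Mfap2 UMIs in WT and 4 in KO. The deleted part of the gene is not given in the sources used here. WT Mfap2 was at 79.4 CPM in the stellate cells with the most Col1a1 and 26.7 CPM in the rest, a division described further on.

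KO and WT stellate cells were compared on 11030 genes with at least 20 UMIs over both. Of these, 6.31% were past 2-fold higher and 3.16% past 2-fold lower in KO. With the interval in place of the 2-fold line, 24.1% were above 0 and 13.2% below. Counts within a list are read beside these shares. The median log2 ratio of all 11030 genes was 0.14, so list medians are read beside that value. In the other filtered cells the same genes had a median of 0.10. Of 90 single genes followed over the alternatives with an interval on one side of 0, 10 changed sign under an alternative other than stricter endothelial and macrophage limits. Those limits left 32 WT and 20 KO cells with 131537 and 66993 UMIs, and there 18 of the 80 genes with enough UMIs for a ratio changed sign.

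Fibrillar collagens, the triple-helical chains of scar fibres, were higher in KO. Their median log2 ratio was 0.71 over 6 genes, with 1 of 6 past 2-fold and 5 of 6 with an interval above 0. Col1a1, the alpha 1 chain of type I collagen, was at 679 CPM in WT and 1397 in KO, a log2 ratio of 1.04 (0.94 to 1.14). The median cell held 381 CPM in WT and 676 in KO. The KO signal was also the more concentrated, with 30.7% of the Col1a1 UMIs in 5 cells against 22.9% in WT. The richest KO cell was at 17738 CPM and the richest WT cell at 4019.

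The partner chains differed by less. Col1a2, the alpha 2 chain of type I collagen, was at 877 CPM in WT and 1148 in KO (log2 ratio 0.39, 0.29 to 0.49). Col3a1, the type III chain, was at 1137 and 1969 CPM (0.79, 0.71 to 0.87). Its median cell was nearly level, at 901 CPM in WT and 939 in KO, and 5 cells held 14.4% and 25.5% of its UMIs. For Col1a2 the median cell was at 503 and 608 CPM, with 20.6% and 26.1% of the UMIs in 5 cells. The type V chains, which seed type I fibrils, were also higher in KO. Col5a1 was at 128 and 236 CPM (0.88) and Col5a2 at 257 and 396 (0.62). Under the stricter limits the list median was -0.08. Col1a1 then had a log2 ratio of 0.12, Col3a1 of -0.43, Col5a1 of -0.32 and Col5a2 of -0.08. Over the other alternatives tried the list median lay between 0.50 and 0.87.

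In cells other than stellate cells the fibrillar list had a median log2 ratio of 0.35. Those cells include the candidates that failed the limits and free RNA, and what part of the stellate difference is shared with them was not tested. At 2000 UMIs per cell, Col1a1 was detected in 59.0% of WT (50.8 to 66.8) and 68.8% of KO stellate cells (60.4 to 76.4), against 0.617% and 1.84% of B cells.

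Non-fibrillar collagens diverged by type. The basement membrane chains Col4a1 and Col4a2 were at 445 and 288 CPM in WT and at 593 and 420 in KO (log2 ratios 0.42 and 0.54). Type VI collagen, a beaded-filament network around cells, split by chain. Col6a1 and Col6a2 were lower in KO (418 to 267 CPM and 201 to 148, log2 ratios -0.64 and -0.44), while Col6a3 was higher (314 to 461, 0.55). Col15a1, of the multiplexin collagens, was past 2-fold at 18.2 and 76.4 CPM (2.03, 1.50 to 2.68), detected in 10.7% of WT and 27.7% of KO cells. Col18a1, its relative, was at 18.2 and 42.0 CPM (1.18, 0.58 to 1.86), with 51.4% of its KO UMIs in 5 cells, and its ratio was -0.09 with limits scaled to depth. The list median was 0.42, with 2 of 11 genes past 2-fold higher and 0 lower.

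The collagen-modifying enzymes had a median of -0.03 over 15 genes. Plod2, the lysyl hydroxylase that acts on collagen telopeptides, was past 2-fold higher in KO, at 129 and 316 CPM (log2 ratio 1.28, 1.06 to 1.52). P4ha1, a catalytic subunit of prolyl 4-hydroxylase, was at 249 and 430 CPM (0.79), and Adamts2, a procollagen N-proteinase, at 236 and 329 (0.48). The collagen chaperone Serpinh1 was at 482 and 493 CPM (0.03, -0.11 to 0.17). Cross-linking lysyl oxidases were slightly lower or level. Lox was at 68.7 and 53.7 CPM (-0.35, -0.77 to 0.05), Loxl1 at 123 and 97.4 (-0.33, but 0.23 without a macrophage limit) and Loxl2 at 74.6 and 75.3 (0.01). P4ha1 had a log2 ratio of 0.87 in the other filtered cells as well. Under the stricter limits P4ha1 was at -0.82 and Adamts2 at -0.24.

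The proteoglycans that coat collagen fibrils went the other way. Dcn was at 9368 CPM in WT and 4839 in KO, a log2 ratio of -0.95 (-0.99 to -0.91), and the median cell was at 9111 and 3844 CPM. Dcn was among the rule's genes. Biglycan (Bgn), which the rule did not use, was at 2400 and 1450 CPM (-0.73, -0.80 to -0.65). Lumican (Lum) was at 1356 and 771 CPM (-0.81, -0.91 to -0.72). Of 16 proteoglycans and matrix glycoproteins, 9 had an interval below 0 and 3 above, with a list median of -0.35 and 0 past 2-fold in either direction. Over all 11030 genes the shares were 13.2% below 0 and 24.1% above.

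The 3 genes of that list with an interval above 0 were adhesive or matricellular glycoproteins. Fibronectin (Fn1) was at 461 CPM in WT and 752 in KO (log2 ratio 0.71), thrombospondin 1 (Thbs1) at 345 and 505 (0.55) and tenascin C (Tnc) at 190 and 282 (0.56). A few cells carried much of it, since 5 KO cells held 74.9% of the Tnc UMIs and 37.2% of those of Fn1. The Tnc ratio was -0.57 without the 5 richest members, -0.98 without the highest Scrublet scores and -2.35 under the stricter limits, where that of Fn1 was -1.23. Sparc, a collagen-binding glycoprotein, was level at 2047 and 2124 CPM (0.05, -0.01 to 0.12).

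When all stellate cells were summed, the fibrillar chains were higher in KO, while Bgn and Lum, which the rule did not use, were lower. Col6a1 and Col6a2 were lower in KO too, as was the rule gene Dcn. In the cells with less Col1a1, described further on, the fibrillar median was below 0 too (-0.54). The other filtered cells showed -0.81 for Dcn, -0.51 for Bgn and -0.37 for Lum. The part of free RNA and of the excluded candidates in these values was not tested.

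**Figure D2:**
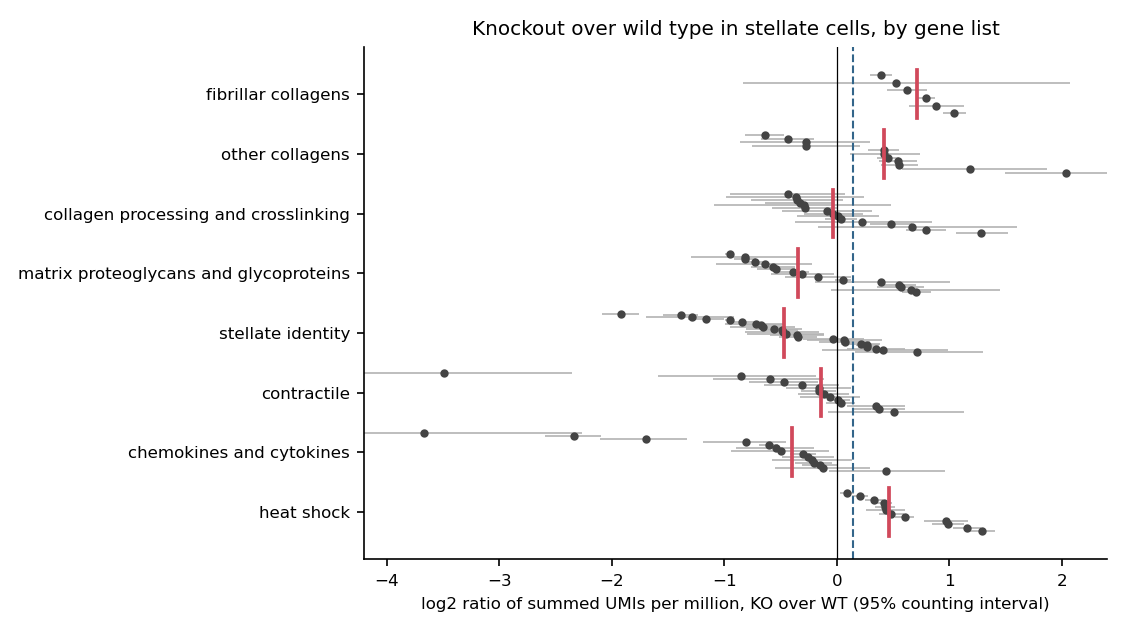
Log2 ratio of CPM, KO over WT, for each measured gene (dots) with its 95% counting interval (grey), by gene list, with list medians in red and the all-gene median of 0.14 as the dashed line. Fibrillar collagens lay to the right with a median of 0.71, the proteoglycans and glycoproteins had a median of -0.35 and the chemokines one of -0.40. An interval that reaches the left edge continues beyond it.

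Other microfibril and elastic fibre genes were nearer to level as a group. The list median, Mfap2 included, was -0.25 over 16 genes, 2 of them past 2-fold lower and 0 higher, and it is the same with Mfap2 at its bound. The genes past 2-fold were Mfap2 and Mfap5. Mfap5, a related microfibril glycoprotein, was at 12.3 CPM in WT and 0.583 in KO, and all its UMIs lay in 5 WT cells and 1 KO cell. Without members that carried other cell types' genes both libraries had 3 or fewer of its UMIs. The fibrillins that build the microfibril were at 179 and 175 CPM for Fbn1 (log2 ratio -0.03, -0.26 to 0.21) and at 172 and 221 for Fbn2 (0.36). Elastin (Eln) was at 193 and 257 CPM (0.42, 0.21 to 0.63), and its ratio was -3.27 under the stricter limits. Ltbp1, which tethers latent TGF-beta to the matrix, was at 149 and 250 CPM (0.75, 0.52 to 0.98).

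Stellate identity genes were lower in KO on the whole. The median of 24 measured genes was -0.47, with 15 intervals below 0 and 5 above (13.2% and 24.1% over all genes). Of the 24, 4 were past 2-fold lower and 0 higher. Some of the 24 are genes of the rule, and a median without them is not given here. Rgs5, a regulator of G-protein signalling found in pericytes, was at 851 CPM in WT and 224 in KO (log2 ratio -1.92, -2.09 to -1.76). The median cell was at 389 CPM in WT and 79.6 in KO. Sod3, extracellular superoxide dismutase, was at 728 and 278 CPM (-1.39), Angptl6 at 112 and 45.5 (-1.29) and Ecm1, a secreted inhibitor of TGF-beta activation, at 638 and 285 (-1.16). Ecm1 was among the rule's genes.

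Other selecting genes differed less or the other way. Lrat, the enzyme that esterifies retinol, was at 384 and 303 CPM (log2 ratio -0.34), and Colec11, a collectin, at 983 and 546 (-0.85). Reln, reelin, was higher in KO at 1234 and 1488 CPM (0.27), as was Hgf, hepatocyte growth factor, at 845 and 1018 (0.27). Under the stricter limits, with 32 and 20 cells, Colec11 had a ratio of 0.22. In the other filtered cells Rgs5 had a ratio of -0.69, Sod3 of -1.08 and Colec11 of -0.64.

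The retinoid and lipid droplet genes had a median of -0.08 over 14 genes, with 1 past 2-fold lower and 0 higher. That one was Fabp4, a fatty acid-binding protein of endothelium and adipocytes, at 117 and 37.3 CPM (log2 ratio -1.64), and its ratio was -1.26 in the other cells and 0.24 under the stricter limits. The droplet coat gene Plin2 was at 206 and 188 CPM (-0.13, -0.35 to 0.09), and lipoprotein lipase (Lpl) at 375 and 348 (-0.11, -0.27 to 0.06).

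Contractile genes, the usual marks of myofibroblasts, did not follow the collagens. Acta2, smooth muscle actin, was at 197 CPM in WT and 182 in KO (log2 ratio -0.12, -0.34 to 0.11). It was detected in 25.4% and 17.6% of the cells, and 5 cells held 73.8% and 84.9% of its UMIs, so the median cell of each library had 0. Over the alternatives tried, the Acta2 ratio ran from -1.83 to 1.04. Tagln, transgelin, was at 425 and 380 CPM (-0.16, but 0.14 without members that carried other cell types' genes) and was seen in 55.6% and 50% of cells. Cald1, caldesmon, was at 901 and 909 CPM (0.01, -0.09 to 0.12) and Tpm1, tropomyosin 1, at 566 and 579 (0.03). The list median was -0.14 over 14 genes, and it was above 0 under several of the alternatives. Cnn1, calponin 1, was past 2-fold lower, but its UMIs came from 2 WT cells and 1 KO cell, and its ratio was 1.33 without the 5 richest members.

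Of the receptors for TGF-beta, the main profibrotic cytokine, Tgfbr1 and Tgfbr2 were higher in KO, while the co-receptor Tgfbr3 and the ligand Tgfb1 were near level. Tgfbr1 was at 151 CPM in WT and 250 in KO (log2 ratio 0.72, 0.50 to 0.95) and Tgfbr2 at 113 and 164 (0.54, 0.27 to 0.81). Tgfbr3 was at 240 and 244 CPM (0.02, -0.17 to 0.23). Tgfb1 was at 96.9 and 86.9 CPM (-0.16, -0.49 to 0.17). Among its targets, Tgfbi was lower in KO at 575 and 316 CPM (-0.86), while Ccn2 was at 115 and 127 (0.14). The list median was 0.17 over 16 genes with 0 past 2-fold, close to the all-gene median of 0.14. Tgfbr1 had a ratio of 0.58 in the other cells and of -1.09 under the stricter limits, where Tgfbr2 was at 1.13.

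For platelet-derived growth factor, a mitogen of stellate cells, the receptors were near level, with Pdgfra at 301 and 348 CPM (log2 ratio 0.21) and Pdgfrb at 186 and 195 (0.07). The ligand Pdgfd was at 93.4 CPM in WT and 155 in KO (0.73, 0.44 to 1.03), and at -0.14 under the stricter limits. Integrins, the matrix receptors, had a median of 0.30 over 10 genes with 1 past 2-fold in each direction. Single ratios ran from -1.38 to 1.54, with 7 intervals above 0 and 1 below. Itgb8, a subunit of the integrin that activates latent TGF-beta, was at 17.0 and 50.8 CPM (1.54, 0.95 to 2.23). Itga8, a stellate integrin subunit, was at 320 and 513 CPM (0.68). Itgbl1, a secreted integrin-like protein, was at 69.3 and 117 CPM (0.75, 0.42 to 1.10), and its ratio was 1.66 in the other cells and -0.44 under the stricter limits.

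Matrix-degrading enzymes and their inhibitors showed no shared direction, with a median of -0.11 over 13 genes. Gelatinase A (Mmp2) was at 291 CPM in WT and 169 in KO (log2 ratio -0.78). Mmp14, the membrane protease that activates it, was at 117 and 125 CPM (0.10). Timp1, a metalloproteinase inhibitor, was at 57.6 and 124 CPM (1.10), but 66.5% of its KO UMIs came from 5 cells, and it was detected in 34.3% of WT and 31.8% of KO cells. Its ratio was -0.61 under the stricter limits.

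Chemokine messages were lower in KO. The list median was -0.40 over 14 genes, with 10 intervals below 0, 0 above, and 3 genes past 2-fold lower. In the other filtered cells the same list had a median of -0.33. Ccl2, the main attractant of monocytes, was at 476 CPM in WT and 93.9 in KO (log2 ratio -2.34, -2.60 to -2.10). At 2000 UMIs per cell it was detected in 28.8% of WT (21.9 to 36.6) and 16.7% of KO stellate cells (10.9 to 24.0), and in 2.16% and 1.32% of B cells. Ccl7, a related monocyte attractant, was at 143 and 43.8 CPM (-1.70), with 57.4% of the WT UMIs in 5 cells. The third was Ccl11, an attractant of eosinophils, whose few UMIs lay almost wholly in 5 WT cells.

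Constitutive ligands were also below WT. Cxcl12, which retains leukocytes and progenitors, was at 1675 CPM in WT and 1100 in KO (log2 ratio -0.61, -0.69 to -0.52), and Il34, a ligand of the macrophage receptor CSF1R, at 99.9 and 56.6 (-0.81). The inducible chemokines Cxcl1 and Cxcl10 differed less, at 398 and 345 CPM (-0.21) and 831 and 674 (-0.30). Il34 was at 0.06 when cells were thinned to 2000 UMIs, and Cxcl10 at 0.03 without a macrophage limit. Ccl2 had a log2 ratio of -0.59 and Ccl7 of -1.04 in the other filtered cells.

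Among growth factors, vascular endothelial growth factor (Vegfa) was at 57.6 CPM in WT and 106 in KO (log2 ratio 0.88, 0.52 to 1.25) and insulin-like growth factor 1 (Igf1) at 86.9 and 122 (0.49). Bmp5 was higher in KO (0.58) while Gdf2 was lower (-0.89, -1.15 to -0.63). Bmp10, which pairs with BMP9 on endothelial receptors, was at 44.6 and 24.5 CPM (-0.85). Under the stricter limits Igf1 was at -1.53 and Bmp10 at 0.75. Rspo3, a Wnt enhancer of central-vein stellate cells, was at 325 and 303 CPM (-0.10, -0.27 to 0.08).

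Genes reported for portal-side and for central-side stellate cells were both lower in KO at the median. The portal list had a median of -0.73 over 5 genes and the central list one of -0.28 over 6. Igfbp3, an insulin-like growth factor binding protein on the portal list, was at 369 and 222 CPM (log2 ratio -0.73). Adamtsl2, a microfibril-associated protein on the central list, was at 79.9 and 139 CPM (0.79, 0.49 to 1.11), and Ngfr, a neurotrophin receptor on the portal list, at 28.8 and 38.5 (0.41, -0.14 to 0.98).

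Heat shock genes were higher in KO in stellate cells and in the other cells. All 12 heat shock genes had an interval above 0, with a median of 0.46 and 2 past 2-fold higher. Hsph1, a co-chaperone of HSP70, was at 521 CPM in WT and 1273 in KO (log2 ratio 1.29, 1.17 to 1.40), and Hspb1, a small heat shock protein, at 465 and 1037 (1.16). The other filtered cells had a heat shock median of 0.93. Metallothioneins, which bind zinc and copper, were lower in KO. Mt1 was at 1574 and 630 CPM (-1.32, -1.42 to -1.22) and Mt2 at 310 and 91.6 (-1.75), while the ratios in other cells were -0.55 and -0.88.

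Immediate early genes, which tissue digestion can induce, were high in both libraries. Fos was at 6440 CPM in WT and 5859 in KO (log2 ratio -0.14) and Jun at 4624 and 5094 (0.14), with a list median of -0.13 over 16 genes and 0 past 2-fold. Interferon genes had a median of -0.07 and 1 gene past 2-fold in each direction. Ifitm1, an interferon-induced membrane protein, was the one lower in KO, at 1198 and 492 CPM (-1.28).

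Outside the lists, several of the genes furthest apart had a ratio of the same sign in the other cells. Of those highest in KO, Gm42418, which overlaps ribosomal RNA sequence, was at 564 and 1510 CPM (log2 ratio 1.42). Cmss1, Lars2, Rsrp1 and Phip had ratios of 1.49, 1.62, 1.27 and 1.24, and in the other cells 0.80, 0.79, 1.18 and 0.66. Pkhd1, a gene of bile duct cilia, and Kcnma1, a potassium channel, had 82.0% and 86.7% of their KO UMIs in 5 cells, and Kcnma1 was at -0.37 without members that carried other cell types' genes. Fhit was at 69.3 and 160 CPM (1.20) but at -1.03 under the stricter limits.

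Among the genes lowest in KO, Hes1, a Notch target, was at 513 and 182 CPM (log2 ratio -1.49), and Gpx3, a secreted glutathione peroxidase, at 417 and 152 (-1.45). Bcr, a regulator of small GTPases, was at 239 and 95.7 CPM (-1.31), and its ratio in the other cells was 0.27. Fcna, a ficolin of macrophages, was at 172 and 68.3 CPM, with -1.64 in the other cells and 0.09 under the stricter limits. Prtn3, a neutrophil protease, had 77.5% of its WT UMIs in 5 cells.

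The stellate cells were next divided by Col1a1. The cut was the pooled median Col1a1 share, 492 CPM, and cells above it are called Col1a1-high. In WT 65 of 169 cells were high (38.5%, 31.1 to 46.2) and in KO 93 of 148 (62.8%, 54.5 to 70.6). No Col1a1 UMI was seen in 39 WT cells (23.1%) and 24 KO cells (16.2%). The classes are ranges of one measure and not cell types, as 23 WT and 16 KO cells lay within 20% of the cut. High cells were deeper, with 12298 UMIs in the median against 9360.5 in WT, and 11953 against 10207 in KO. With each cell thinned to 2000 UMIs before the division, 28.8% of WT and 42.8% of KO cells were high, and the stricter limits gave 50% in each.

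**Figure D3:**
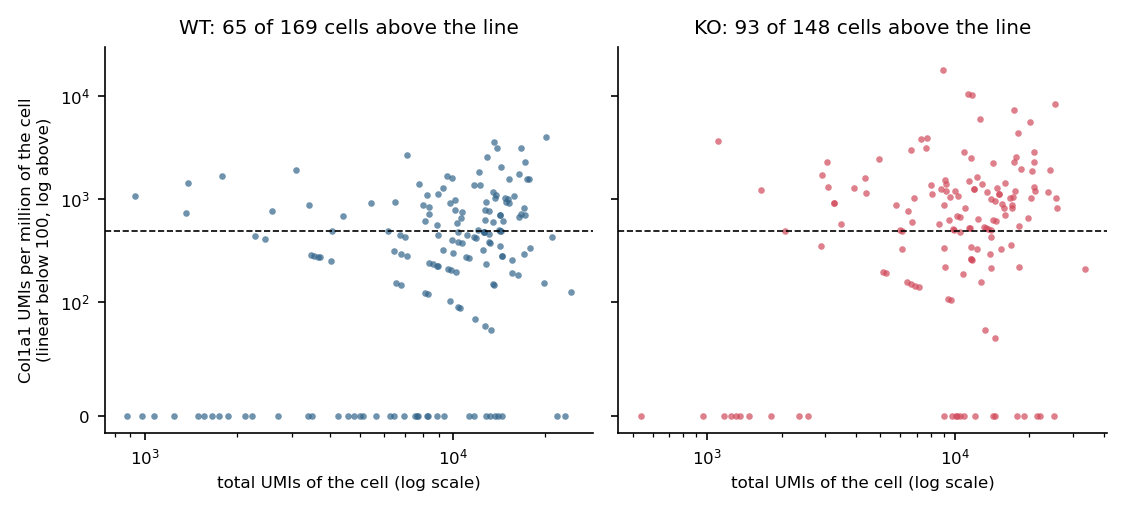
Col1a1 CPM of each stellate cell (vertical, linear below 100 and log above) against the total UMIs of the cell (log scale), WT left and KO right, 1 point per cell, with the dashed line at the cut of 492. In WT 65 of 169 and in KO 93 of 148 cells lay above the line, and cells at 0 occurred at all depths.

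Since Col1a1 set the classes, what follows is a description, and list values leave Col1a1 out. Genes past 2-fold higher in high cells of both libraries made up 0.952% of the 11030, and genes past 2-fold lower in both 1.8%. With intervals in place of the 2-fold line the shares were 2.67% above 0 and 2.59% below 0 in both. The all-gene medians of high over low were -0.03 in WT and -0.04 in KO. These values depend on the limits: of 73 WT and 79 KO ratios of single genes with an interval on one side of 0, 32 and 37 changed sign under at least 1 alternative, or 21 and 27 with the stricter limits left aside.

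The other fibrillar chains went with Col1a1. Col1a2 was at 1448 CPM in high and 448 in low WT cells (log2 ratio 1.69), and at 1556 and 307 in KO (2.33). Col3a1 was at 1749 and 678 CPM in WT (1.37) and at 2723 and 416 in KO (2.70). Col5a2 was at 337 and 196 CPM in WT (0.78) and at 499 and 182 in KO (1.44). The list medians were 0.78 in WT and 1.54 in KO over 5 genes, with 2 of 5 past 2-fold higher in both libraries.

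The type VI and type IV chains named here also went with Col1a1, with smaller ratios than Col1a2 and Col3a1. Col6a3 had ratios of 1.02 in WT and 1.78 in KO, and Col6a2 of 0.99 and 1.82, the WT value of Col6a2 being -0.59 under the stricter limits. Col4a1 was at 0.56 and 1.32. Col14a1, a fibril-associated collagen, hardly differed in WT (840 CPM in high, 786 in low cells) but did in KO (1315 and 677). The non-fibrillar medians were 0.56 and 1.51, with 2 of 11 past 2-fold in both.

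Of the cross-linking enzymes, Loxl1 and Lox were among the genes that went furthest with Col1a1. Loxl1 was at 204 CPM in high and 61.7 in low WT cells (log2 ratio 1.71) and at 133 and 25 in KO (2.32). Lox was at 114 and 35 CPM in WT (1.68) and at 69.3 and 21.4 in KO (1.60). Loxl2 did so in KO (97.1 and 30.4 CPM, 1.61) but not in WT (68.5 and 79.2, -0.20), and Loxl3 was at 13.7 and 23.7 CPM in WT and at 15.6 and 16.1 in KO. Under the stricter limits Loxl1 was at -0.94 in WT and had 3 or fewer UMIs in each KO class. Over the list of collagen-modifying enzymes, 2 of 15 were past 2-fold higher in both libraries. Plod2, higher in KO as a whole, was level in WT (126 and 132 CPM, -0.06) and higher in high cells of KO (374 and 195, 0.93). P4ha1 ran the other way in both, with ratios of -0.87 and -0.44, but at 0.23 and 0.56 with limits per 10000 UMIs.

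Matrix glycoproteins and microfibril genes were also higher in high cells. Fbn2 was at 312 and 65.8 CPM in WT (log2 ratio 2.23) and at 282 and 94.7 in KO (1.55), and Eln at 310 and 105 (1.55) and 308 and 152 (1.01). Lum had ratios of 1.07 and 1.43 and Mmp2 of 1.40 and 1.79, though under the stricter limits the KO values were -0.35 and -0.57. Dcn was flat in WT, at 9533 CPM in high and 9244 in low cells (0.04), and at 5368 and 3750 in KO (0.52, but -0.49 under the stricter limits). Mgp, matrix Gla protein, stood high in both (2.68 and 1.31), but 5 cells held 83.3% and 80.0% of its UMIs. Of 16 glycoproteins and proteoglycans 4 were past 2-fold higher in both, with list medians of 0.62 in WT and 1.35 in KO, and of 16 microfibril genes 4.

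Fn1 and Acta2 differed in direction between the libraries. Fn1 was at 405 CPM in high and 502 in low WT cells (log2 ratio -0.31) and at 990 and 261 in KO (1.92). Acta2 was at 162 and 224 CPM in WT (-0.47) and at 239 and 64.3 in KO (1.86). Both rest on few cells, since 5 cells held 33.3% and 37.2% of the Fn1 UMIs and most of those of Acta2. The WT values turned with the cells used: Fn1 was at 1.24 with limits per 10000 UMIs, and Acta2 at 0.40 without the 5 richest members and at 0.70 without members that carried other cell types' genes. The contractile medians were -0.42 and 0.47, and the difference between the libraries was not tested.

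Whether the stellate identity list, which includes genes of the rule, went with Col1a1 depended on the limits. The list medians were -0.03 in WT and 0.14 in KO, but 0.78 and 0.82 without a macrophage limit, 0.77 and 1.56 with limits per 10000 UMIs, and 0.48 and -0.49 under the stricter limits. The values that follow are those of the members. Lrat was at 378 CPM in high and 389 in low WT cells and at 328 and 250 in KO, and Reln had ratios of -0.26 and -0.16. Without a macrophage limit those of Reln were 0.35 and 0.56. Tcf21 (0.73 and 1.08), Cygb, a haem protein of stellate cells (0.68 and 0.68), and Lpl (1.05 and 1.51) were higher in high cells of both libraries, though Cygb in KO was at -0.47 when cells were thinned before the division. Hgf was nearly level in WT (896 and 808 CPM) and higher in high cells of KO (1218 and 607). Hhip, a hedgehog-binding protein, was lower in both, but 5 KO cells held 97.3% of its UMIs.

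**Figure D4:**
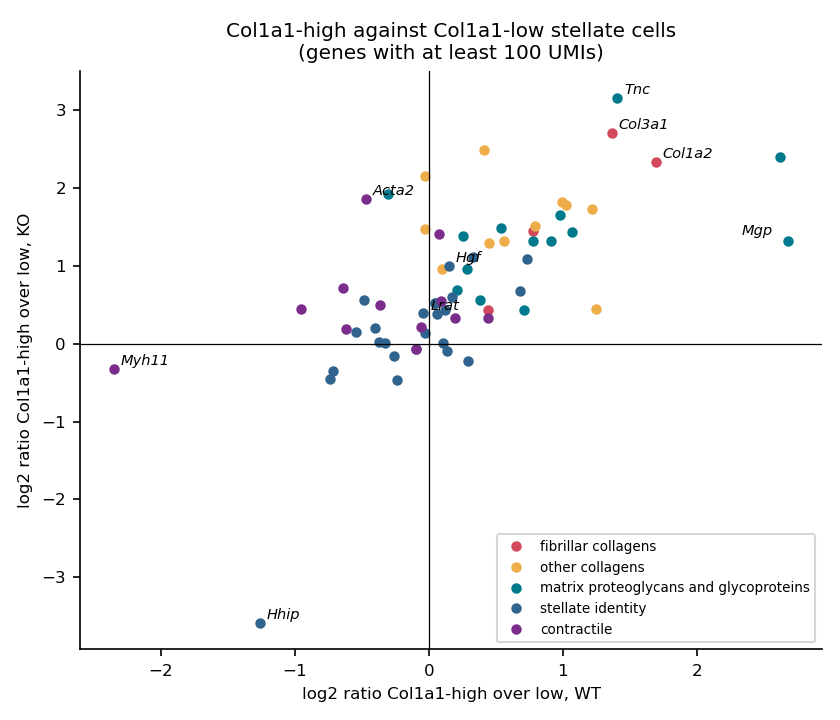
Log2 ratio of Col1a1-high over Col1a1-low cells in WT (horizontal) and KO (vertical) for genes of 5 lists with at least 100 UMIs, 1 point per gene, coloured by list and without Col1a1. Collagen genes mostly lie in the upper right (Col1a2 at 1.69 and 2.33), stellate identity genes lie around the origin (Lrat at -0.04 and 0.39), and Acta2 lies in the upper left.

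Among the members, low cells carried more of some inflammatory messages, named because they were among the lowest of this contrast. The lists as a whole were nearer to level. Interferon genes had medians of -0.17 in WT and -0.15 in KO, with 0 of 16 past 2-fold in both libraries. Chemokines had medians of -0.06 and -0.15 over 14 genes, with 1 past 2-fold in each direction in both libraries. Cxcl10, an interferon-induced chemokine, was at 570 CPM in high and 1028 in low WT cells (log2 ratio -0.85) and at 520 and 991 in KO (-0.93). Ifit3, an interferon-induced protein, had ratios of -1.22 and -0.66, and Gbp2, a guanylate-binding protein, of -2.26 and -0.60, with 55.3% of the WT Gbp2 UMIs in 5 cells. In KO this direction changed with the limits. Without the macrophage limit Cxcl10 was at 0.44, Ifit3 at 0.52 and Gbp2 at 0.23, and with limits per 10000 UMIs they were at 0.72, 0.99 and 0.65. In WT Cxcl10 was at 0.06 under the stricter limits. Lrba, Trak2, Ube2g1, Shroom3 and Gm12703 were lower in high cells of both libraries as well, with ratios between -1.30 and -0.64. Shroom3 was above 0 in both libraries (0.28 each) without members that carried other cell types' genes, Gm12703 (0.02 and 0.31) with limits per 10000 UMIs, and Ube2g1 in KO (0.22) when cells were thinned before the division. In contrast Il6, interleukin 6, was higher in high cells of WT (156 and 32.9 CPM, 2.21) and less so in KO (81.5 and 57.1, 0.48).

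Genes of other cell types were not evenly spread over the classes. Mesothelial genes summed to 6.85 CPM in high and 332 in low WT cells and to 25.1 and 121 in KO. Hepatocyte genes summed to 121 and 296 CPM in WT and to 300 and 1422 in KO, and cholangiocyte genes to 151 and 562 and to 217 and 1372. Over single cells these differences were small: the median cell had 78.4 CPM of hepatocyte genes in high and 91.5 in low WT cells, and 202 and 280 in KO. For mesothelial genes it was 0 in every class. Neutrophil genes summed to 834 and 3013 CPM in WT, with 60.3% of their UMIs in 5 cells, and to 890 and 843 in KO, and their WT median cell was at 780 and 924. Macrophage genes had medians of 1235 and 1277 CPM in WT and 1154 and 1121 in KO. Portal fibroblast genes were higher in high cells of both libraries. They summed to 274 CPM in high and 203 in low WT cells and to 332 and 123 in KO. Their median cell was at 146 and 64.3 CPM in WT and at 137 and 0 in KO. Smooth muscle genes summed to 792 and 952 CPM in WT and to 1072 and 702 in KO. By the median cell they were higher in high cells of both libraries, at 652 and 519 CPM in WT and 881 and 516 in KO. The part of cells with such genes in the differences between classes was not tested.

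The cells were also ranked by Col1a1 share over both libraries and divided into 4 bins of about equal size. The top bin held 27 WT and 52 KO cells, and the lowest 50 and 30. Col3a1 was at 393, 876, 1502 and 2089 CPM from the lowest to the highest bin in WT, and at 266, 569, 1226 and 3918 in KO. It therefore stood below WT in the lower 3 bins and above it in the top bin. Mmp2 was at 45.1, 258, 352 and 589 CPM in WT and at 24.8, 101, 182 and 252 in KO, below WT in each bin. Reln was highest in bin 2 in both libraries, at 1536 and 2155 CPM, and was at 638 in the top bin of WT and 1269 in that of KO.

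**Figure D5:**
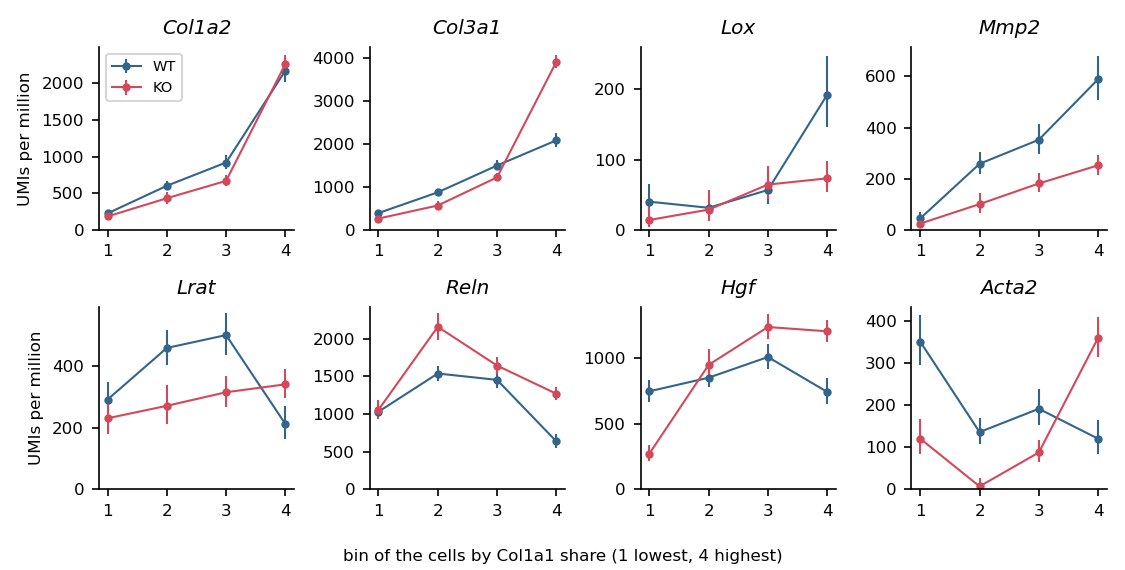
CPM of 8 genes in 4 pooled bins of the stellate cells by Col1a1 share (1 lowest, 4 highest), WT in blue and KO in red, with 95% counting intervals. Col1a2 and Col3a1 were higher with each bin in both libraries, Mmp2 was below WT in each KO bin, and Acta2 was highest in the lowest WT bin (351 CPM) and in the highest KO bin (360 CPM).

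Within the classes, genotype ratios depended on the class. The fibrillar list had a median log2 ratio of KO to WT of 0.64 in high cells and -0.54 in low cells, both without Col1a1. Col3a1 was at 0.64 and -0.70, and Col1a2 at 0.10 and -0.54. Col5a1 was higher in KO in both (0.77 and 0.78). For Dcn the ratio was below 0 in both classes, at -0.83 and -1.30, as it was for Bgn (-0.80 and -1.34), Rgs5 (-1.95 and -1.72) and Ccl2 (-1.82 and -2.50). The classes were cut on a collagen whose level differed between the libraries, so these within-class values describe the cells and no more.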

How the data were processed

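The deposited matrices hold raw UMI counts per gene and barcode for 2 libraries, and per the file headers Cell Ranger 7.0.1 was the authors' software. The submitters' processing notes name Cell Ranger 3.1.0, Seurat and mm10. The annotation, the use of intronic reads and any earlier cell filter are not given in the sources used here. Members and gene lists were chosen with earlier results of these data known.

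UMIs were summed over the stellate cells of a library and given per 1000000 UMIs (CPM). Ratios carry exact conditional intervals, levels exact Poisson and shares exact Clopper-Pearson ones. Genes needed 20 UMIs over both libraries, and past 2-fold was the line for a call. Ratio and gate steps were tested on simulated data. Log2 ratios have 1 count added to each side.

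All genes of the lists could be named, and a few genes that meet these rules are not reported here. Besides these, the text names genes with a mean of at least 100 CPM whose level in stellate cells was at or above that of other cells in the library or libraries compared. They are the 10 highest and 10 lowest KO over WT, the 10 highest and 10 lowest high over low by the smaller of the libraries' ratios, and the 15 with the highest ratio over other cells. These choices exclude the rule's own genes and mitochondrial, haemoglobin and ribosomal protein genes. GENCODE M21 (GRCm38) holds 32158 of the 32285 identifiers. Many genes overlap others on the opposite strand, and strand handling is not given in the sources used here. Analysis used scipy 1.17.1 and pandas 2.3.3, and Scrublet was run in scanpy 1.11.5. Alternatives covered doublets, filters, limits, marker sets, thinning, scaling, gene floors and the class division.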

Additional observations from a re-analysis of the deposited data

Results flagged for a closer look

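Actg2, a smooth muscle actin gene, had opposite signs in the 2 libraries when Col1a1-high cells were set against Col1a1-low cells. The log2 ratio, with 1 count added to each side, was -3.65 in WT and 3.81 in KO, where low cells had 0 UMIs. All of its UMIs lay in 5 or fewer cells of each library, 2.96% of WT and 0.676% of KO stellate cells, and the difference was not tested.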

How the results depend on the processing

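No paired analysis was possible because the labels give no replicate numbers and each genotype has 1 library. Alternatives without a macrophage limit, with limits per 10000 UMIs, without members carrying other cell types' genes and without barcodes found in both libraries were chosen after seeing the data.

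Stricter endothelial and macrophage limits, which left 32 WT and 20 KO cells, changed most. The KO to WT share became -0.84, and 50% of cells were Col1a1-high in each library. KO to WT medians became 0.035 (all genes), -0.077 (fibrillar), -0.38 (processing), -0.89 (proteoglycans and glycoproteins), -0.47 (contractile) and -1.49 (chemokines). High to low medians in WT became 0.48 (identity), 1.07 (fibrillar), 0.99 (proteoglycans) and 1.37 (contractile), and in KO -0.49 (identity), 0.73 (other collagens) and -0.20 (proteoglycans, reversed). Of the genes past 2-fold, those reversed there were, KO over WT, Fabp4 0.24, Fcna 0.089, Fhit -1.03 and Timp1 -0.61. High over low in WT they were Loxl1 -0.94, Mgp -5.57, Myh11 1.22 and Ncam1 -0.91. In KO they were Bgn -0.99, Lum -0.35, Mgp -0.20, Mmp14 -0.25, Mmp2 -0.57, Sparc -0.50 and Tagln -0.33, and the cholangiocyte median in KO was 1.65. Including genes under 2-fold whose interval excluded 0, 18 of 80 turned KO over WT, 21 of 65 high over low in WT and 28 of 60 in KO. No ratio is given where both sides had 3 or fewer UMIs, which left out 74 values.

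Thinning to 2000 UMIs gave KO to WT -0.70 (microfibril) and high to low 0.10 (contractile, WT), 1.06 (other collagens, KO) and 0.67 (proteoglycans, KO). Thinned before the division, 28.8% and 42.8% of cells were high, the WT medians were 0.080 (all genes) and 0.33 (other collagens), the KO median 1.06 (other collagens), and Itgbl1 in KO reversed to -0.45. Median-of-ratios scaling gave 0 (all genes), 0.56 (fibrillar) and 0.32 (heat shock).

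The stricter marker threshold gave 0.87 (fibrillar) and 0.19 (contractile), 1.30 for Cnn1, a mesothelial median of 0.13 and a WT cholangiocyte high to low median of 0.36. Lrat, Reln and Colec11 alone gave -0.11 (proteoglycans) and 0.11 (contractile). Without the 5 richest members the contractile medians were 0.15 (KO to WT) and 0.10 (high to low, WT), and Cnn1 was at 1.33 (KO to WT). Division at each library's own median turned Ccl11 in WT to 2.86. Without the highest Scrublet scores the mesothelial median reversed to 1.62. At least 500 genes, and likewise a floor of 100 UMIs, gave 1.07 (fibrillar, high to low in WT). Upper against lower tertile gave 1.16 (fibrillar), 0.87 (other collagens) and 1.18 (proteoglycans) in WT.

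Without a macrophage limit Igf1 was at -0.74 high to low in WT, KO to WT was -0.13 (proteoglycans) and -0.50 (contractile), and high to low was 0.78 (identity), 1.38 (fibrillar), 1.47 (other collagens), 1.19 (proteoglycans) and -0.032 (contractile) in WT, and 0.82 (identity) in KO. Limits per 10000 UMIs gave KO to WT 0.50 (fibrillar), -0.56 (contractile), -0.0083 (hepatocyte) and -0.094 (Col18a1). High to low was then 0.77 (identity), 1.65 (fibrillar), 1.41 (other collagens) and 1.50 (proteoglycans) in WT, and -0.15 (all genes), 1.56 (identity), 2.05 (other collagens), 1.35 (contractile) and -0.081 (Col18a1) in KO. Without members carrying other cell types' genes, KO to WT was -0.13 (proteoglycans), 0.11 (contractile), 1.89 (mesothelial) and -0.37 (Kcnma1), and high to low 0.11 (contractile, WT), 1.09 (other collagens, KO), 0.80 (mesothelial, WT) and 2.08 (mesothelial, KO). Why these values differ between settings was not tested. Of the list medians and shares compared here, 336 more values stayed inside the interval of the main value or, for all genes together, within 0.1 of it. Among single genes and the remaining lists 4283 values did so, 1678 moved further and 31 reversed. With 1 library per genotype, depth sets counting error but not the spread between animals.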
